A study of Mus musculus with 36 samples.

Results

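The 8 genes described here encode the carriers that move glutamate and GABA, the main excitatory and inhibitory transmitters of the brain, and the chloride that GABA receptors pass. They are Slc1a2, Slc1a3, Slc1a1, Slc17a6, Slc17a7, Slc32a1, Slc12a2 and Slc12a5, chosen by gene name from the 16614 rows of the count table, and all 8 were found. Ribosome protected fragments (RPFs), the short stretches of mRNA that a ribosome shields from nuclease, were sequenced from the pellet of a sucrose gradient, which holds RNA granules with clustered ribosomes, and from fraction 5/6, which holds ribosome clusters that do not pellet. RNA-seq was made from whole brain homogenate. Brains came from C57BL/6 mice (WT) and from FMR1-KO mice (FMR1 KO), which lack FMRP in every cell, at postnatal day 5, with 10 brains pooled per preparation. Each of the 12 groups had 3 libraries, 36 in all. The standard libraries were made with 10 mM MgCl2 and, for RPFs, strong nuclease digestion. The low nuclease libraries, labelled control, were made with 2.5 mM MgCl2 and, for RPFs, weak digestion. The paper describes digestion for the pellet and fraction 5/6, so for RNA-seq these names mark only the preparation. The 3 RPF replicates of a group were joined after linker ligation and amplified together, so those steps and the group cannot be told apart.

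Glutamate released at synapses is taken up by the carriers of the Slc1 family. Slc1a2 (GLT-1) and Slc1a3 (GLAST) belong mainly to astrocytes and radial glia, and Slc1a1 (EAAC1) mainly to neurons. Slc17a6 (VGLUT2) and Slc17a7 (VGLUT1) fill synaptic vesicles with glutamate, and Slc32a1 (VGAT) fills them with GABA or glycine. Slc12a2 (NKCC1) brings chloride into cells and Slc12a5 (KCC2) takes it out of neurons. Their balance shifts toward Slc12a5 as the brain matures, and GABA then turns from a depolarizing into a hyperpolarizing transmitter.

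The standard RPF libraries held 6765065 to 40174168 counts and the standard RNA-seq libraries 112249206 to 147216378. Cdk8 alone held 36.7% to 63.4% of each standard RPF library, so levels are given as CPM, counts per 1000000 counts of the library with Cdk8 left out. Fmr1 was at 60.6 to 71.9 CPM in WT RNA-seq and 16.4 to 18.1 in FMR1 KO RNA-seq, and at 64.6 to 67.8 CPM against 4.79 to 4.93 CPM in the pellets. The library labelled WT fraction 5/6 replicate 3 went against its label, with 3.17 CPM of Fmr1. Over 12164 genes, its Spearman correlation was 0.911 to 0.964 with the FMR1 KO pellet, 0.949 to 0.952 with the WT pellet and 0.895 to 0.897 with the other WT libraries of fraction 5/6. The main results for the 8 carriers that use it are also given without it, and the values of other genes of the pathways that use it are given with it only. Markers of neurons, astrocytes and radial glia, oligodendrocytes, microglia, endothelium, choroid plexus and red blood cells were all found in the standard libraries, with no marker at 0 in a group. In such bulk samples, fewer cells of a type and less RNA per cell cannot be told apart.

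Slc1a3 was the only carrier with called peaks in all 6 pellet libraries, and the sites that recurred between libraries are shown here. The pellet libraries had 6 to 18 peaks on Slc1a3, and how many sites would recur by chance among them was not tested. The authors called peaks per library on single transcripts, and the middle of a peak was taken as its site. Slc1a3 lies on the minus strand at chr15:8634124-8710764 (GRCm38), and its transcript ENSMUST00000005493 has 4163 nt in 10 exons and a reading frame of 543 codons. A site at codon 210, in exon 6, was found within 1 nt in all 3 FMR1 KO pellet libraries and within 5 nt in WT pellet replicate 1 as well, with heights of 12 to 23 reads. WT pellet replicate 2 had a peak of 13 reads close by, at codon 212. Sites at codons 135, 181 and 422 were found within 6 nt in 3 of the 6 pellet libraries each, 1 WT and 2 FMR1 KO, with heights of 16 to 26, 1 to 16 and 5 to 16 reads. Sites at codons 108 and 289 recurred in 3 pellet libraries as well and span exon junctions. The windows of 30 bases below are read 5′ to 3′ on the mRNA, the capitals mark the codon at the middle of the peak, and starts in the peak files were taken as counted from 0. The sequences are from GENCODE M21 (GRCm38).
Slc1a3 codon 135, exon 4, chr15:8650953-8650982: accatcattgctGTGgtgattggcataatc
Slc1a3 codon 181, exon 5, chr15:8649554-8649583: acatgttccctcccAATctggtagaagcct
Slc1a3 codon 210, exon 6, chr15:8645877-8645906: ccaacgaaacacttCTGggcgccgtgatca
Slc1a3 codon 422, exon 8, chr15:8642192-8642221: acaactttgacctgAACtttggacagatta

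WT pellets gave 18, 12 and 14 peaks on Slc1a3, and FMR1 KO pellets gave 14, 6 and 18. In fraction 5/6 it was 2, 0 and 21 in WT, where the 21 belonged to the library labelled replicate 3, and 0, 1 and 0 in FMR1 KO. Every pellet library therefore had more Slc1a3 peaks than the other 5 libraries of fraction 5/6. These 5 also held fewer reads of Slc1a3, 173 to 511 counts against 653 to 1400 in the pellet, and the part of read number in the count of peaks was not tested. All 106 peaks lay in the coding sequence, from codon 62 to codon 542. They were spread along the frame, with 6, 8 and 4 peaks in its beginning, middle and end parts of equal length in WT pellet replicate 1 and 6, 4 and 8 in FMR1 KO pellet replicate 3. Within 6 nt, no site was shared by all 3 WT pellet libraries and 1 site, at codon 210, by all 3 FMR1 KO pellet libraries. With 12 nt allowed, the counts of shared sites were 0 and 3. Slc32a1 was next, with 4, 1 and 6 peaks in WT pellets, 8, 0 and 5 in those of FMR1 KO and none in fraction 5/6 apart from 5 in the library labelled WT replicate 3. All 29 of its peaks were coding, and none of its sites recurred in 3 pellet libraries. Slc17a6 had 9 peaks, Slc1a2 had 7 and Slc12a5 had 2 over the 12 libraries, while Slc1a1, Slc17a7 and Slc12a2 had none.

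**Figure D1:**
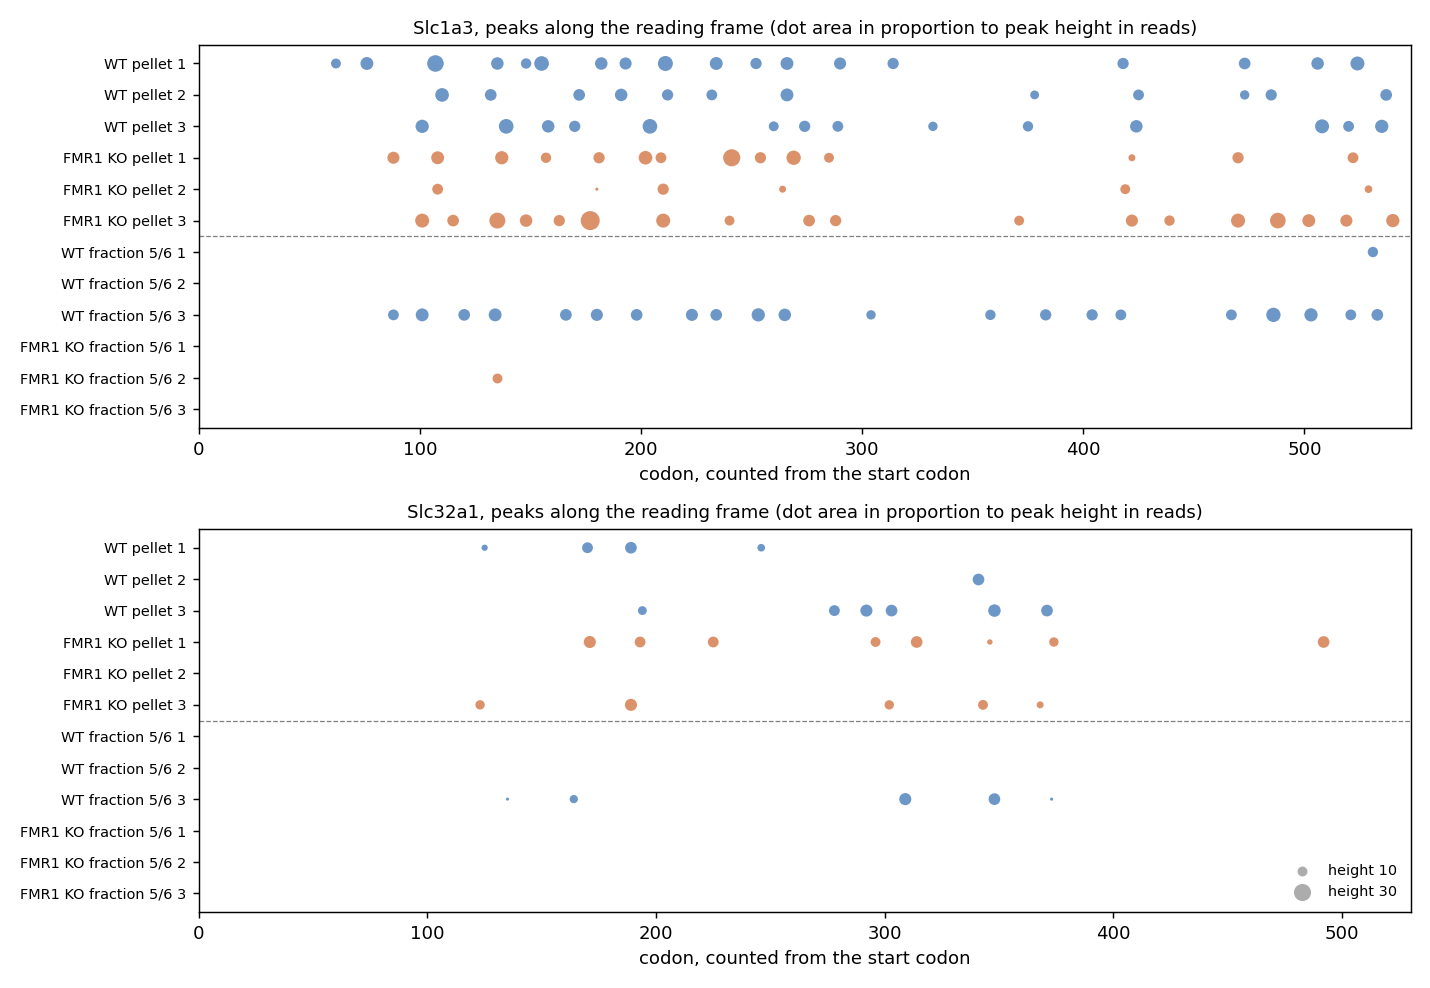
Positions of the peaks of Slc1a3 (top) and Slc32a1 (bottom) in the 12 standard RPF libraries, by codon counted from the start codon, with dot area in proportion to the height of the peak in reads, WT in blue and FMR1 KO in orange. Peaks with a height of 0 have no visible dot. The 6 pellet libraries had 6 to 18 peaks on Slc1a3, and in fraction 5/6 only the library labelled WT replicate 3, with 21, had more than 2.

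Levels of the 8 mRNAs were compared with each other per kilobase, as RPKM on the exon length for RNA-seq and on the coding length for RPFs. In WT RNA-seq, Slc17a7 was highest at 20.4 ± 2.98 RPKM (SD, n = 3), followed by Slc1a2 at 10.8 ± 1.75, Slc32a1 at 7.53 ± 0.44, Slc17a6 at 5.63 ± 0.73, Slc12a5 at 5.49 ± 0.46, Slc1a3 at 5.30 ± 1.31, Slc1a1 at 1.73 ± 0.22 and Slc12a2 at 1.43 ± 0.22. The libraries of Slc17a6, Slc12a5 and Slc1a3 overlapped, as did those of Slc1a1 and Slc12a2. The order was the same in FMR1 KO RNA-seq, where Slc17a7 was at 23.2 ± 2.53 RPKM (SD, n = 3) and Slc12a2 at 1.29 ± 0.09.

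In the pellet the glial glutamate carriers came first, and so they did in fraction 5/6 of both genotypes. In WT fraction 5/6, with the library labelled replicate 3, Slc1a3 was at 30.7 and Slc1a2 at 20.0 RPKM. In FMR1 KO fraction 5/6 they were at 19.9 and 18.3. In the WT pellet, Slc1a3 was at 46.6 ± 7.92 RPKM and Slc1a2 at 35.2 ± 13.8 (SD, n = 3). In the FMR1 KO pellet they were at 45.3 ± 16.6 and 27.8 ± 4.25 RPKM (SD, n = 3), and their pellet libraries overlapped in both genotypes. Slc12a5, Slc17a6, Slc1a1, Slc32a1 and Slc17a7 followed at 9.11 to 11.7 RPKM in the WT pellet, each overlapping its neighbour in the order. Slc17a7, the highest of the 8 in RNA-seq, was seventh in the pellet of both genotypes, at 9.11 ± 4.20 RPKM in WT (SD, n = 3) and 5.91 ± 1.42 RPKM in FMR1 KO. In fraction 5/6 it held rank 7 in WT and rank 6 in FMR1 KO. Slc12a2 was lowest in every standard group, at 1.89 ± 0.57 RPKM in the WT pellet. The coding share of the exon length ran from 13.7% for Slc1a2 to 56.3% for Slc32a1. The long untranslated parts of Slc1a2 add reads to RNA-seq, while translating ribosomes sit mainly on coding sequence, and reads in the untranslated parts were not measured here. The order of fold changes of RPFs against RNA between genes was not corrected for the coding share.

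**Figure D2:**
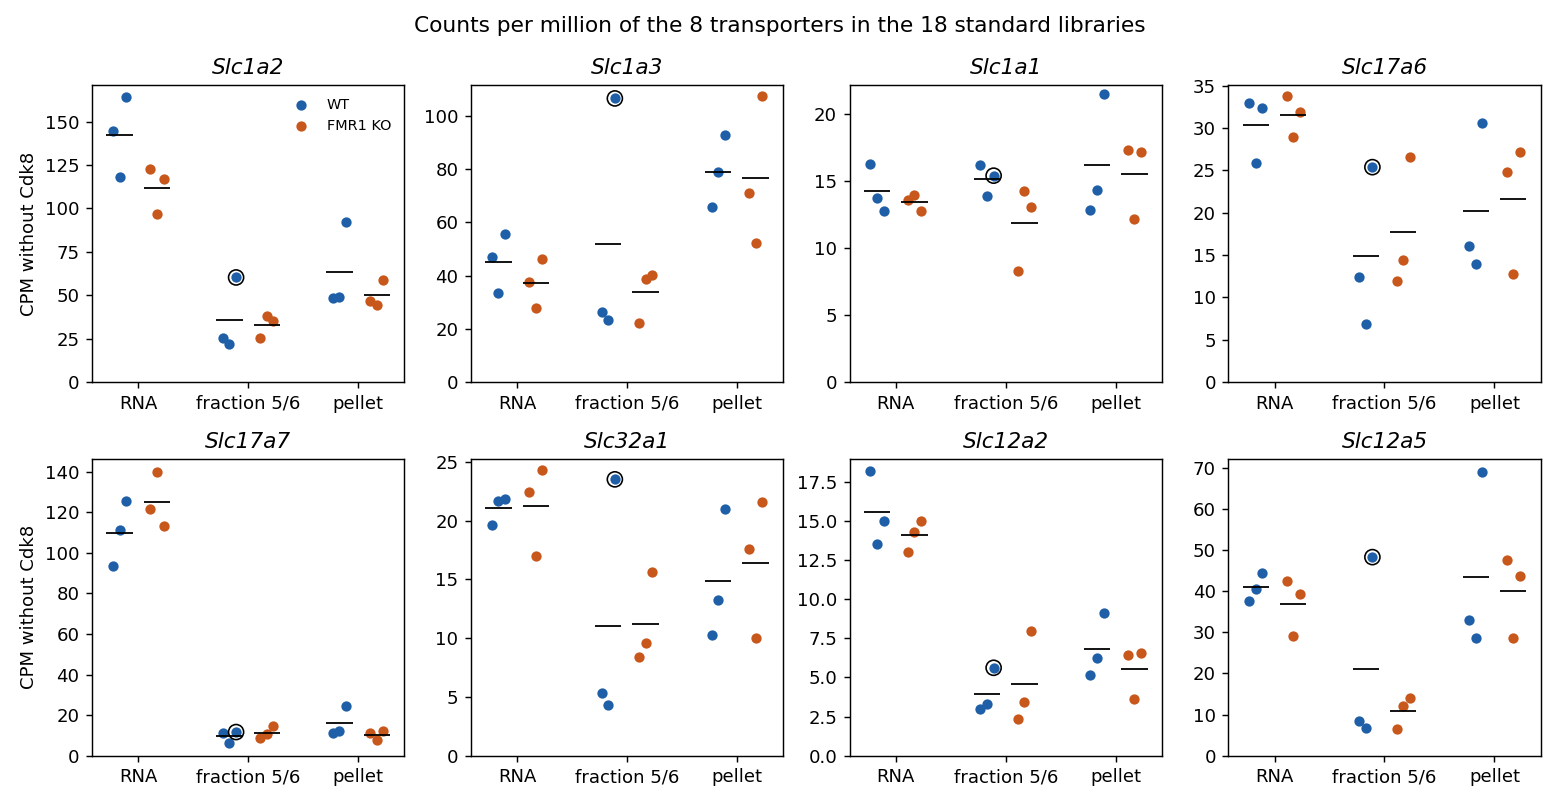
Level of each carrier, in CPM without Cdk8, in the 18 standard libraries, with RNA-seq, fraction 5/6 and pellet on the horizontal axis, WT in blue, FMR1 KO in orange and a bar at the mean of the 3 libraries. The circled point is the library labelled WT fraction 5/6 replicate 3, which lay at pellet-like levels for Slc1a3 (107 CPM), Slc32a1 (23.5) and Slc12a5 (48.2).

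Occupancy, the level of RPFs in the pellet against RNA from the homogenate, sets reads mainly on coding sequence against reads on whole exons. It therefore depends on the coding share of a gene as well as on its pelleted ribosomes. Per kilobase, Slc1a2 rose from 10.8 RPKM in WT RNA-seq to 35.2 in the WT pellet, and Slc12a5 from 5.49 to 11.7. Their coding shares were 13.7% and 49.8%, so the calls below compare counts and not ribosomes per coding length. In WT, 3 of the 8 carriers were higher and 1 was lower, where 31.1% of the 16166 genes tested were higher and 34.3% lower (65.4% in all). In FMR1 KO, 5 were higher and 1 was lower, where 31.9% of 16132 genes were higher and 35.2% lower (67.1% in all). The median log2 fold change of the carriers was 0.63 in WT and 0.61 in FMR1 KO, against -0.11 and -0.07 over all genes tested, and all 8 passed the filter on low counts. These values are relative to the bulk of genes: with scaling by library size alone, the median of all genes fell to -2.13 in WT and -2.33 in FMR1 KO, and every carrier then lay below 0.

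Slc1a3 stood at 46.9, 33.4 and 55.4 CPM in WT RNA-seq and at 65.8, 78.8 and 92.7 CPM in the WT pellet, and at 37.6, 27.9 and 46.4 CPM in FMR1 KO RNA-seq and 71.0, 52.1 and 107 CPM in the FMR1 KO pellet. The pellet libraries of each genotype all lay above its RNA-seq libraries. The log2 fold change in occupancy was 1.97 in WT (standard error 0.22, edgeR quasi-likelihood test, adjusted p = 0.000171) and 2.13 in FMR1 KO (standard error 0.21, adjusted p = 0.000128). Slc1a2, its glial partner, stood at 145, 118 and 164 CPM in WT RNA-seq and 48.6, 49.2 and 91.8 CPM in the WT pellet, and its log2 fold change of 0.01 (standard error 0.30, edgeR adjusted p = 0.972) did not pass the test. Without WT pellet replicate 3 it was -0.43 and passed as lower (edgeR adjusted p = 0.037). In FMR1 KO it was -0.04 (standard error 0.13, edgeR adjusted p = 0.793). Slc1a1, the neuronal carrier, was at 12.8 to 16.2 CPM in WT RNA-seq and 12.8 to 21.5 CPM in the WT pellet, and after scaling its occupancy was higher, at 1.35 on the log2 scale in WT (standard error 0.25, edgeR adjusted p = 0.00201) and 1.31 in FMR1 KO (standard error 0.11, edgeR adjusted p = 5.2e-05). Beside Slc1a3, 6 of 9 markers of astrocytes and radial glia were higher and 1 lower in occupancy in each genotype, with medians of 1.09 in WT and 1.27 in FMR1 KO. Their levels summed to 1059 to 1550 CPM in WT RNA-seq and 1213 to 1607 in WT pellets, and their part in the values of the glial carriers was not tested.

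The vesicular glutamate transporters went apart. Slc17a7 had 10464, 15347 and 15388 counts in WT RNA-seq and 242, 148 and 292 in the WT pellet, or 93.2, 111 and 125 CPM against 11.4, 12.1 and 24.5. In FMR1 KO the levels were 122, 140 and 113 CPM in RNA-seq and 11.2, 7.58 and 12.3 in the pellet. It was the only carrier called lower in occupancy, at -1.60 on the log2 scale in WT (standard error 0.33, edgeR adjusted p = 0.00398) and -2.50 in FMR1 KO (standard error 0.13, edgeR adjusted p = 1.11e-05). Slc17a6 was at 25.8 to 33.0 CPM in WT RNA-seq and 13.9 to 30.6 in the WT pellet. Its log2 fold change was 0.60 in WT (standard error 0.33, edgeR adjusted p = 0.144), which did not pass, and 0.53 in FMR1 KO (standard error 0.15, edgeR adjusted p = 0.0168), which did. Slc32a1, the GABA transporter of vesicles, was similar, at 0.66 in WT (standard error 0.27, edgeR adjusted p = 0.0644) and 0.70 in FMR1 KO (standard error 0.17, edgeR adjusted p = 0.00996). In FMR1 KO, the call of Slc17a6 or Slc32a1 was lost without pellet replicate 1 (edgeR adjusted p = 0.112 and 0.0529) and without pellet replicate 3 (0.107 and 0.0586). In WT, Slc17a6 passed without pellet replicate 2 (edgeR adjusted p = 0.0323), and Slc32a1 without pellet replicate 1 or 2 (0.0209 and 0.0496).

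Of the chloride carriers, the exporter Slc12a5 passed the test in occupancy and the importer Slc12a2 did not. Slc12a5 stood at 37.6, 40.6 and 44.5 CPM in WT RNA-seq and 32.9, 28.5 and 69.0 in the WT pellet, and at 42.5, 29.1 and 39.2 in FMR1 KO RNA-seq and 47.6, 28.6 and 43.7 in the FMR1 KO pellet. These CPM overlapped, and on the TMM scale of the test the log2 fold change was 1.28 in WT (standard error 0.36, edgeR adjusted p = 0.0156) and 1.21 in FMR1 KO (standard error 0.14, edgeR adjusted p = 0.000293). In WT the call was lost without RNA-seq replicate 1 or 2 (edgeR adjusted p = 0.0564 and 0.0505). Slc12a2 was at 13.5 to 18.2 CPM in WT RNA-seq and 5.17 to 9.14 in the WT pellet, and its log2 fold changes of -0.03 in WT (standard error 0.26, edgeR adjusted p = 0.929) and -0.27 in FMR1 KO (standard error 0.14, edgeR adjusted p = 0.14) did not pass.

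Occupancy of these carriers was not the same in the low nuclease libraries. There, Slc1a3 was at a log2 fold change of -0.25 in WT and -0.45 in FMR1 KO, Slc1a1 at -0.42 and -0.46, and Slc12a5 at -1.39 and -1.12, of which Slc12a5 in WT passed the test as lower (edgeR adjusted p = 0.00548). Slc32a1 was lower in WT as well, at -0.93 (edgeR adjusted p = 0.0229). Slc17a7 was lower there as well, by -2.69 in WT (edgeR adjusted p = 0.000315) and -2.43 in FMR1 KO (edgeR adjusted p = 0.0224), and so was the one member whose occupancy kept its direction and its call in both preparations and genotypes. Slc1a2 was higher in WT, by 0.95 (edgeR adjusted p = 0.0357). Of the 6 RNA-seq libraries of this preparation, 3 stood apart, with 82.4% to 85.0% of their counts in 10 genes: replicate 2 of WT and replicates 2 and 3 of FMR1 KO. Without these 3, Slc12a5 was at -1.21 in WT and -1.67 in FMR1 KO, and Slc1a3 at 0.02 and -0.58, a fit in which FMR1 KO RNA-seq is 1 library that is assumed to vary like the other groups.

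**Figure D3:**
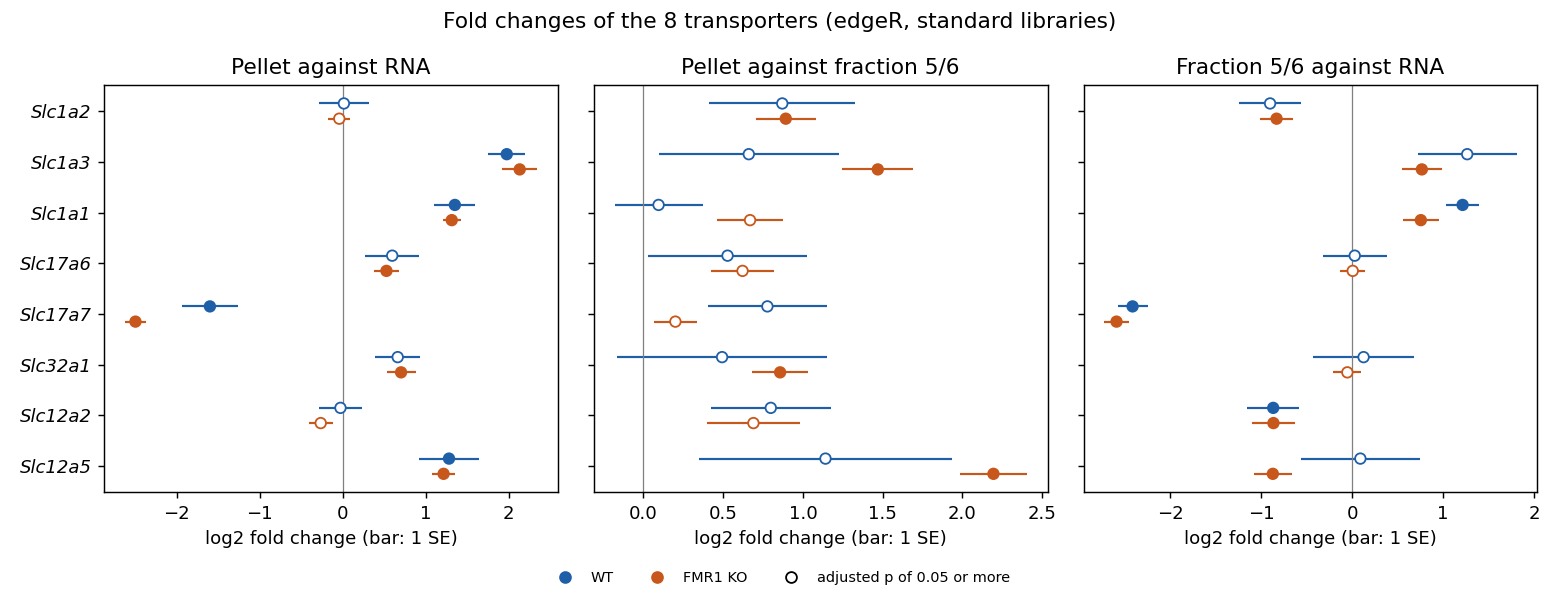
Log2 fold changes of the 8 carriers in pellet against RNA-seq (occupancy), pellet against fraction 5/6 (enrichment) and fraction 5/6 against RNA-seq, in WT (blue) and FMR1 KO (orange), with bars of 1 standard error and filled points for an adjusted p under 0.05. Slc1a3, Slc1a1 and Slc12a5 lay above 0 and Slc17a7 below 0 in occupancy in both genotypes, and all 16 points of enrichment lay above 0; with scaling by library size alone, every point of occupancy lay below 0, and so did Slc17a7 in FMR1 KO enrichment.

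Enrichment, the RPFs of the pellet against those of fraction 5/6, compares the mRNAs of ribosomes that pelleted with those of ribosomes in clusters that did not. In FMR1 KO, 4 of the 8 carriers were higher in the pellet and none lower, where 9.09% of the 13248 genes tested were higher and 2.35% lower (11.4% in all). Their median log2 fold change was 0.77, against -0.04 over all genes. With scaling by library size alone none of the 4 passed, and 1 passed without FMR1 KO fraction 5/6 replicate 1. In WT, none of the 8 passed, and none had an unadjusted p under 0.05 in edgeR or a call in DESeq2, where 0.0153% of 13076 genes were higher and 0.00765% lower (0.0229% in all). The WT values of the 8 carriers were nevertheless 0.09 to 1.14, with a median of 0.72 against -0.01 over all genes. Without the library labelled WT fraction 5/6 replicate 3 they ran from 0.04 for Slc1a1 to 2.48 for Slc12a5, and 1 of the 8 passed, where 1027 genes were higher and 246 lower (1273 in all). Counts of genes in such alternative fits are out of at most 16588 rows kept as protein-coding, before the filter on low counts. Shares of the genes tested are not given for them.

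In the standard libraries, Slc12a5 had the largest enrichment of the 8. Its counts were 734, 359 and 546 in the FMR1 KO pellet and 62, 160 and 60 in FMR1 KO fraction 5/6, or 47.6, 28.6 and 43.7 CPM against 6.40, 12.1 and 14.0. Every pellet library lay above every library of fraction 5/6. The log2 fold change was 2.19 (standard error 0.21, edgeR adjusted p = 0.0027), 4.58-fold, higher than 98.1% of the genes tested. In WT, fraction 5/6 held 8.36, 6.81 and 48.2 CPM, the last in the library labelled replicate 3, against 28.5 to 69.0 in the pellet, and the log2 fold change was 1.14 (standard error 0.79, edgeR adjusted p = 0.646). Without that library it was 2.48 (edgeR adjusted p = 0.0533). In the low nuclease libraries, Slc12a5 was enriched by 1.92 in WT (edgeR adjusted p = 0.00616) and stood at 1.68 in FMR1 KO (edgeR adjusted p = 0.0591). There Slc1a2 had the larger value, 3.14 in WT (edgeR adjusted p = 0.00434) and 2.12 in FMR1 KO (edgeR adjusted p = 0.156).

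Slc1a3 was at 21.97, 38.7 and 40.4 CPM in FMR1 KO fraction 5/6 and at 52.1 to 107 CPM in the FMR1 KO pellet, again without overlap, and rose by 1.47 on the log2 scale (standard error 0.22, edgeR adjusted p = 0.0105). In WT it was at 26.4, 23.2 and, in the library labelled replicate 3, 107 CPM in fraction 5/6, with a log2 fold change of 0.66 (standard error 0.57, edgeR adjusted p = 0.679). Without that library it was 1.59 and passed the test (edgeR adjusted p = 0.0222), the only one of the 8 to do so. In FMR1 KO, the adjusted p was 0.05002 without fraction 5/6 replicate 1. The 9 markers of astrocytes and radial glia summed to 1142 to 1420 CPM in the FMR1 KO pellet and 1353 to 2079 in FMR1 KO fraction 5/6, so the summed level of the list was not higher in the pellet. Of these 9 markers, 2 were higher in FMR1 KO enrichment and none lower, with a median of -0.13.

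Slc1a2 and Slc32a1 were the other carriers enriched in the FMR1 KO pellet. Slc1a2 rose from 25.4, 38.0 and 35.2 CPM in fraction 5/6 to 46.7, 44.4 and 58.5 in the pellet (log2 fold change 0.89, standard error 0.19, edgeR adjusted p = 0.0314). Slc32a1 stood at 8.36, 9.55 and 15.6 CPM in fraction 5/6 and 17.6, 9.97 and 21.6 in the pellet, which overlap, and its log2 fold change was 0.86 (standard error 0.18, edgeR adjusted p = 0.0297). Each of these calls was lost when any of 5 of the 6 libraries was left out, with edgeR adjusted p of 0.0711 to 0.121 for Slc1a2 and 0.0558 to 0.113 for Slc32a1. The call of Slc32a1 was also lost with a replicate block (edgeR adjusted p = 0.0581). The other 4 carriers did not pass in edgeR in FMR1 KO, with 0.67 for Slc1a1, 0.62 for Slc17a6, 0.20 for Slc17a7 and 0.69 for Slc12a2. DESeq2 called Slc1a1 (adjusted p = 0.0448) and Slc17a6 (adjusted p = 0.034) as well, and edgeR passed Slc1a1 without fraction 5/6 replicate 2 (adjusted p = 0.0153) and Slc17a6 without pellet replicate 2 (adjusted p = 0.0344). In the low nuclease WT libraries, 7 of the 8 carriers were higher in the pellet, and Slc17a7 was at 0.57 (edgeR adjusted p = 0.212). Of at most 16588 protein-coding rows, 2225 genes were higher there and 1334 lower (3559 in all). In the low nuclease FMR1 KO libraries none passed, where 1369 genes were higher and 1824 lower (3193 in all), with Slc17a7 at -0.09 and the others at 0.64 to 2.12.

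Fraction 5/6 against RNA shows the same mRNAs on ribosomes that did not pellet. In FMR1 KO, 2 carriers were higher and 4 lower, where 29.8% of 16146 genes were higher and 33.2% lower (62.9% in all). Slc1a3 (0.77, edgeR adjusted p = 0.0164) and Slc1a1 (0.75, edgeR adjusted p = 0.012) were higher, and Slc17a7 (-2.59, edgeR adjusted p = 1.03e-05), Slc12a5 (-0.87, edgeR adjusted p = 0.00822), Slc12a2 (-0.87, edgeR adjusted p = 0.0141) and Slc1a2 (-0.83, edgeR adjusted p = 0.0045) lower. Slc12a5 thus lay above the bulk of genes in the pellet against RNA and below it in fraction 5/6 against RNA. In WT, 1 was higher and 2 were lower, where 24.7% of 16172 genes were higher and 31.3% lower (55.9% in all): Slc1a1 at 1.21, Slc17a7 at -2.42 and Slc12a2 at -0.87. The call of Slc12a2 was lost without WT fraction 5/6 replicate 1 or any 1 of the WT RNA-seq libraries (edgeR adjusted p = 0.0643 to 0.123), with Cdk8 left out (0.0682) and with the replicate block (0.0685). In FMR1 KO the call of Slc1a3 was lost without fraction 5/6 replicate 2 (edgeR adjusted p = 0.0739), and that of Slc12a2 without RNA-seq replicate 3 (edgeR adjusted p = 0.0537). Without the library labelled WT fraction 5/6 replicate 3, 1 was higher and 5 were lower, and Slc12a5 went from 0.09 to -1.16 and Slc32a1 from 0.12 to -0.86. Of at most 16588 protein-coding rows, 4596 genes were higher in this fit and 5273 lower (9869 in all). The pellet and fraction 5/6 are compared with the same RNA-seq libraries. In the low nuclease WT libraries all 8 carriers were lower in fraction 5/6 than in RNA, from -1.14 for Slc1a1 to -3.22 for Slc12a5. There 4437 genes were higher and 4587 lower (9024 in all), of at most 16588 protein-coding rows.

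Ratios of carriers within a library do not depend on how libraries are scaled. Between pellet and RNA-seq they do depend on the coding share of the exon length, and were not corrected for it. This share was 49.8% for Slc12a5, 33.1% for Slc12a2, 32.5% for Slc17a7 and 32.3% for Slc17a6. It was 13.7% for Slc1a2, 19.9% for Slc1a3 and 56.3% for Slc32a1. The part of these shares in the differences from RNA-seq was not tested. Each ratio was tested over both genotypes, 6 libraries against 6, with an exact two-sided permutation test and adjustment over 8 tests. The ratio of Slc12a5 to Slc12a2 counts was 2.07 to 3.00 in WT RNA-seq, 2.04 to 3.27 in FMR1 KO RNA-seq, 4.59 to 7.55 in WT pellets and 6.66 to 7.98 in FMR1 KO pellets. Every pellet library lay above every RNA-seq library, by 1.35 on the log2 scale or 2.55-fold (exact permutation test, p = 0.00217, adjusted p = 0.00433). In fraction 5/6 the ratio was 1.77 to 3.56, apart from 8.59 in the library labelled WT replicate 3, and the pellet was higher by 1.11 (exact permutation test, p = 0.0173, adjusted p = 0.0277). Without that library the difference was 1.41, the highest with any 1 library left out.

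Slc17a7 counts were 2.82 to 4.84 times those of Slc17a6 in RNA-seq of both genotypes, 0.706 to 0.871 times in WT pellets and 0.453 to 0.594 times in FMR1 KO pellets. The ratio was 6.04-fold lower in the pellet than in RNA-seq, without overlap (exact permutation test, p = 0.00217, adjusted p = 0.00433). Fraction 5/6, at 0.458 in the library labelled WT replicate 3 and 0.553 to 0.933 in the other 5, was not past the threshold against the pellet (difference -0.14 on the log2 scale, exact permutation test, p = 0.539, adjusted p = 0.539). Without that library the difference was -0.26, also not past the threshold. Between the 2 vesicular glutamate transporters, RNA and footprints of the standard libraries therefore stood in opposite order. In low nuclease fraction 5/6 this did not hold, with ratios of 0.723 to 1.34 in WT and 1.22 to 1.57 in FMR1 KO. The standard FMR1 KO pellet lay below the WT pellet in all 3 libraries, by -0.67 on the log2 scale (exact permutation test, p = 0.1, the smallest that 3 against 3 allow, adjusted p = 0.84 over 12 tests). In the low nuclease pellets this was not seen, with 0.605 to 0.808 in WT and 0.651 to 0.778 in FMR1 KO.

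Slc1a2 counts were 2.52 to 3.55 times those of Slc1a3 in RNA-seq and 0.545 to 0.991 times in the pellet, a 4.33-fold lower ratio (exact permutation test, p = 0.00217, adjusted p = 0.00433). In fraction 5/6 it was 0.565 in the library labelled WT replicate 3 and 0.873 to 1.16 in the other 5, not past the threshold against the pellet (difference -0.31 on the log2 scale, exact permutation test, p = 0.134, adjusted p = 0.179). Slc32a1 counts were 0.101 to 0.167 times the sum of both vesicular glutamate transporters in RNA-seq and 0.374 to 0.545 times in the pellet, 3.23-fold higher (exact permutation test, p = 0.00217, adjusted p = 0.00433). Against fraction 5/6 the difference was 0.29 (exact permutation test, p = 0.214, adjusted p = 0.245). Without the library labelled WT fraction 5/6 replicate 3, this difference was 0.44 and that of Slc1a2 to Slc1a3 was -0.44, with unadjusted p of 0.039 and 0.0303 (exact permutation test).

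**Figure D4:**
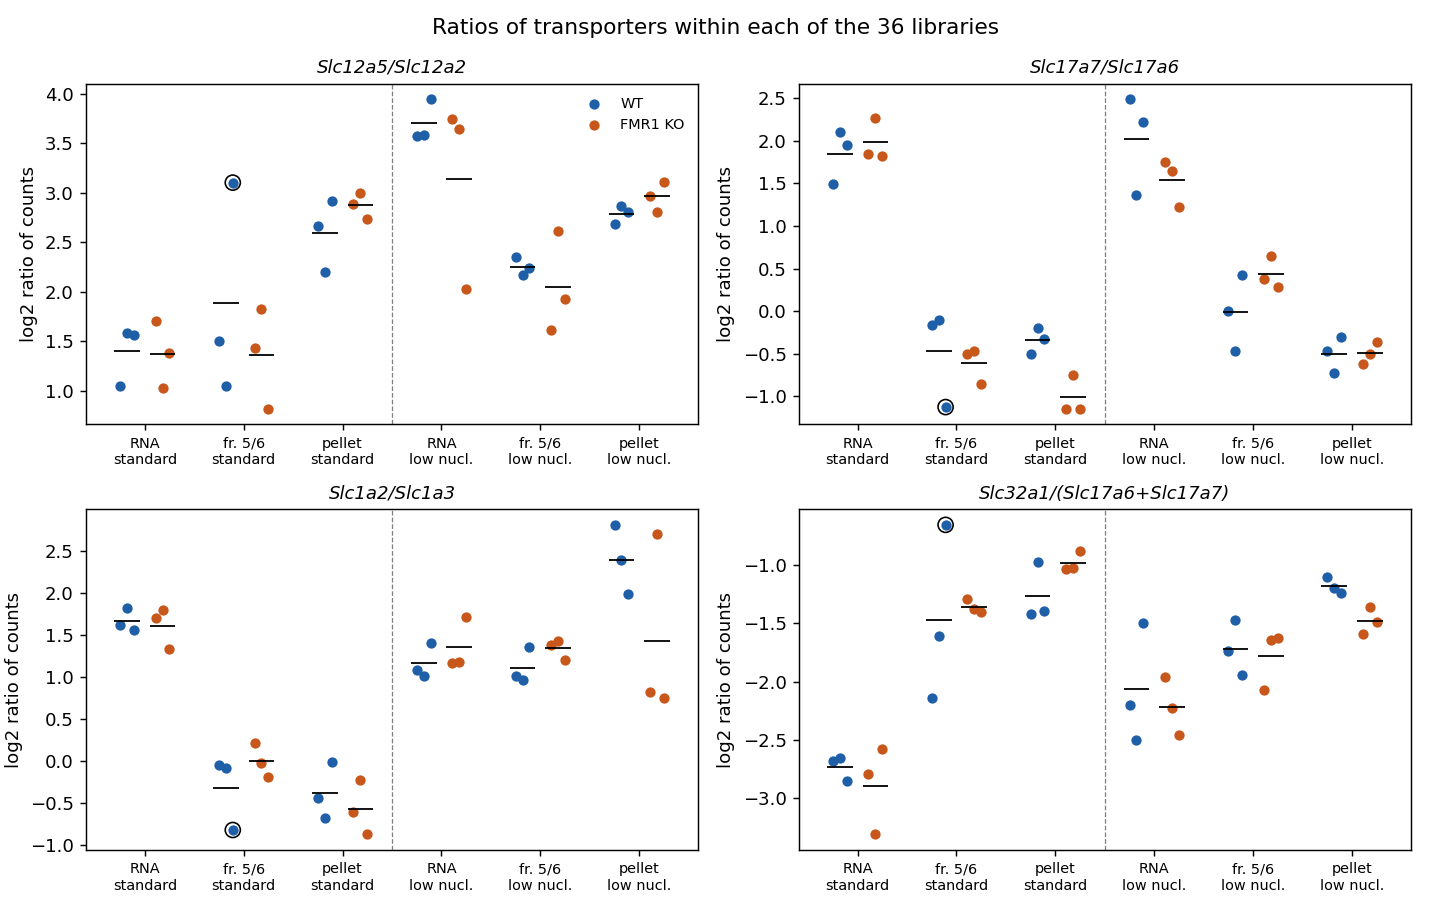
Log2 ratio of the counts of carriers within each of the 36 libraries, WT in blue and FMR1 KO in orange, with a bar at the mean of 3 libraries and a circle around the library labelled WT fraction 5/6 replicate 3; standard libraries are left of the dashed line and low nuclease libraries right. In the standard libraries the pellet lay apart from RNA-seq in all 4 ratios, and in the low nuclease libraries Slc12a5 to Slc12a2 reached 11.9 to 15.4 in WT RNA-seq and Slc1a2 to Slc1a3 reached 3.96 to 7.03 in the WT pellet.

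On the CPM scale all 8 carriers were at higher levels in the low nuclease WT pellet than in the standard one, without overlap, as were 60.4% of 14856 genes with a mean of at least 10 counts in these libraries, while 2.69% lay lower. After TMM scaling 7 of the 8 lay higher without overlap, all but Slc1a3, as did 30.9% of these genes, with 23.7% lower. Slc1a2 stood at 962, 660 and 788 CPM in the low nuclease WT pellet, against 48.6 to 91.8 in the standard one, and at 84.7, 958 and 186 CPM in the low nuclease FMR1 KO pellet. FMR1 KO replicate 2 thus lay within reach of the WT libraries and the other FMR1 KO libraries far below. In fraction 5/6 of this preparation it was at 67.3 to 124 CPM in WT and 47.2 to 149 in FMR1 KO. Slc1a3 was at 126 to 199 CPM in the low nuclease WT pellet against 65.8 to 92.7 in the standard one, and Slc12a5 at 134 to 192 against 28.5 to 69.0. The ratio of Slc1a2 to Slc1a3 was 3.96 to 7.03 in WT and 1.76, 6.54 and 1.68 in FMR1 KO, where no standard pellet was above 0.991. The direction of this ratio between pellet and RNA turned in this preparation, from -2.12 in the standard libraries to 0.65 on the log2 scale (exact permutation test, p = 0.128), with 2.02 to 2.65 in WT RNA-seq and 2.24 to 3.29 in FMR1 KO RNA-seq. The enrichment of Slc1a2 was larger in the low nuclease than in the standard preparation by 1.71 on the log2 scale over both genotypes (standard error 0.60), which did not pass the test of the difference (edgeR adjusted p = 0.479, unadjusted p = 0.0102), where 0.00635% of 15736 genes were higher and 0.0191% lower (0.0254% in all). For the other 7 carriers this difference was -0.29 to 0.58. These differences include the library labelled WT fraction 5/6 replicate 3 and were not fitted without it. The Slc12a5 to Slc12a2 ratio was also shifted in the low nuclease RNA-seq, to 11.9 to 15.4 in WT and 4.08 to 13.4 in FMR1 KO, so that the pellet, at 6.42 to 8.66, no longer lay above it (difference -0.55 on the log2 scale, exact permutation test, p = 0.104). The 4.08 belonged to FMR1 KO replicate 3, one of the 3 RNA-seq libraries that stood apart. Without these 3 the difference was -0.88 (exact permutation test, unadjusted p = 0.0238), and every pellet library lay below the RNA-seq libraries. Slc17a7 to Slc17a6 and Slc32a1 to the vesicular glutamate transporters went the same way between pellet and RNA-seq as in the standard libraries. For Slc32a1 the ranges overlapped, with 0.333 to 0.467 in the pellet and 0.177 to 0.354 in RNA-seq. Without the 3 RNA-seq libraries its difference was 0.56 on the log2 scale, against 1.69 in the standard libraries.

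The carriers were also compared between the genotypes, to ask whether loss of FMRP changed their RNA, their pelleted ribosomes or their place between the fractions. None of the 8 passed the edgeR test in RNA-seq, where 0.0306% of 16334 genes were higher and 0.0429% lower (0.0735% in all), in the pellet (0.015% of 13370), in fraction 5/6 (0% of 13075), in occupancy (0.0489% higher and 0.0183% lower, 0.0672% of 16372 in all) or in enrichment (0% of 13679), and DESeq2 called none of the 8 either. An unadjusted p under 0.05 was given by 1 of 8 in RNA-seq, Slc1a2 at -0.32 (standard error 0.13, unadjusted p = 0.0346, edgeR adjusted p = 0.999), and 1 in fraction 5/6, Slc1a1 at -0.67 (standard error 0.24, unadjusted p = 0.0305, edgeR adjusted p = 0.826), as did 422 of 16334 genes in RNA-seq and 590 of 13075 in fraction 5/6. Slc1a2 RNA was at 118 to 164 CPM in WT and 96.7 to 122.5 in FMR1 KO. In the pellet the log2 fold changes of FMR1 KO against WT ran from -0.63 for Slc17a7 (standard error 0.35) to 0.13 for Slc32a1 (standard error 0.32). Slc17a7 had the largest change of the 8 in occupancy between the genotypes, -0.86 (standard error 0.40, edgeR adjusted p = 0.798). In the low nuclease libraries its direction turned, to 0.19, which was not called. Slc12a5 was at 1.08 in enrichment (standard error 0.90, edgeR adjusted p = 0.897), and at -0.27 (edgeR adjusted p = 0.966) in a fit that left out the library labelled WT fraction 5/6 replicate 3. Without that library the 8 carriers ran from -0.70 for Slc32a1 to 0.65 for Slc1a1 in enrichment, and in fraction 5/6 Slc12a5 went from -1.23 to 0.10, Slc1a3 from -0.89 to 0.03, Slc32a1 from -0.28 to 0.79 and Slc1a1 from -0.67 to -0.72, with none called. In simulated counts, the pellet comparison found 8% of genes changed by 1 on the log2 scale and 81% of those changed by 2, and RNA-seq found 97% and 100%. The changed genes were drawn only from those above the median level, so these shares do not cover genes with few reads.

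Other genes of the same pathways were taken as lists, whose counts stand beside the shares of all genes: in occupancy 31.1% higher and 34.3% lower in WT and 31.9% and 35.2% in FMR1 KO, and in FMR1 KO enrichment 9.09% and 2.35%. Of 10 enzymes of glutamate and GABA metabolism, 7 were higher and 1 lower in occupancy in each genotype, with a median of 1.39 in WT and 1.17 in FMR1 KO. Abat, which breaks down GABA, was at 3.30 in WT and 3.94 in FMR1 KO (edgeR adjusted p = 0.000851 and 2.88e-05), and Gad1, which makes it, at 1.69 and 1.60 (edgeR adjusted p = 3.2e-05 and 6.6e-05). Gls2, a glutaminase, was at -0.92 in WT (edgeR adjusted p = 0.0365) and -0.60 in FMR1 KO (edgeR adjusted p = 0.0934), with Got2, an aminotransferase, at -0.24 and -0.50. In enrichment, 1 of the 10 was higher in FMR1 KO, Gad2, the other GABA-making enzyme, at 0.89 (edgeR adjusted p = 0.0299), Glud1 was at 0.99, and Got1 (-0.10) and Glul (-0.15) were lowest.

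Of 13 other amino acid and GABA carriers tested, 5 were higher and 1 lower in occupancy in WT and 4 and 1 in FMR1 KO. Slc7a11, the cystine and glutamate exchanger, was at 3.53 in WT and 3.77 in FMR1 KO (edgeR adjusted p = 8.52e-06 and 1.46e-05), and Slc1a4, a neutral amino acid carrier of the same family as GLAST, at 1.30 and 1.47 (edgeR adjusted p = 0.00223 and 0.000766). Slc38a1, a glutamine carrier of neurons, was lower at -0.88 and -0.74 (edgeR adjusted p = 0.017 and 0.000942), Slc38a5 was at -1.06 in WT and Slc6a12 at -1.30 in FMR1 KO. In FMR1 KO enrichment 4 of 11 were higher, led by Slc1a4 at 1.53 (edgeR adjusted p = 0.0211), with Slc38a3 at 1.08 and, at the low end, Slc7a11 at 0.67 and Slc17a8 at 0.32.

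Of 16 other genes of chloride handling tested, 3 were higher and 4 lower in occupancy in WT and 4 and 3 in FMR1 KO. Slc12a9 was at 1.202 and 1.29 (edgeR adjusted p = 0.00143 and 0.00327). Slc12a8 was at -1.58 in WT and 1.15 in FMR1 KO, Oxsr1, a kinase that acts on these cotransporters, at 0.57 in WT, and the chloride channel Clcn2 at -1.14 in FMR1 KO. In FMR1 KO enrichment 4 of 13 were higher, led by Slc12a9 (2.36, edgeR adjusted p = 0.0206) and Clcn6 (1.45, edgeR adjusted p = 0.0492), with Oxsr1 at 0.04 and Stk39 at -0.15. Of 5 other vesicular transporters tested, 1 was higher in occupancy in each genotype, Slc18a1, a monoamine transporter (0.82 and 0.77, edgeR adjusted p = 0.00442 and 0.00235), while Slc17a5 was at 0.60 and 1.05, Slc18a2 at 0.14 in WT, Slc18a3 at 0.25 in FMR1 KO and the zinc transporter Slc30a3 at -1.04 and -0.94. In FMR1 KO enrichment 1 of 4 was higher, Slc18a2 (1.15, edgeR adjusted p = 0.0496), with Slc30a3 at 0.49, Slc18a1 at -0.01 and Slc17a5 at -0.52.

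In WT enrichment none of the genes of these 4 lists passed. Among the highest and lowest values were 0.94 for Slc12a7 and 0.93 for Wnk4, 1.07 for Slc1a6, 0.58 for Gad2 and 0.56 for Glud1, and 0.84 for Slc18a2 at the high end, and -1.59 for Abat, -1.58 for Slc6a13, -0.52 for Slc17a5 and -0.16 for Stk39 at the low end, with the library labelled WT fraction 5/6 replicate 3 among them. In fraction 5/6 against RNA, 6 of the 10 metabolic enzymes were higher and none lower in WT, and 4 and 2 in FMR1 KO, where 24.7% of all genes were higher and 31.3% lower in WT and 29.8% and 33.2% in FMR1 KO. Of the chloride genes, 1 was higher and 5 lower of 16 in WT and 2 and 8 in FMR1 KO, of the 13 amino acid and GABA carriers 1 and 1 in WT and 1 and 3 in FMR1 KO, and of the 5 vesicular transporters 2 and 0 in WT and 1 and 1 in FMR1 KO. Abat was at 4.84 and 3.36, Got1 at 1.56 and 1.52 and Slc7a11 at 2.82 and 3.21. None of the genes of these lists was called between the genotypes. Over the 231 other Slc genes tested in WT, 36 were higher and 90 lower in occupancy with a median of -0.53, and over 228 in FMR1 KO 48 were higher and 82 lower with a median of -0.26. In FMR1 KO enrichment, 23 of 153 were higher and 1 lower with a median of 0.67, so a value above 0 in enrichment was not particular to the 8 carriers.

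For each carrier, the protein-coding genes with the most similar pattern over the 18 standard libraries were found by the Euclidean distance of centred log2 values among 15916 genes. They were Plat and Cyfip1 for Slc1a3 (0.89 and 1.05, where the median gene was 4.98 away), Sez6l for Slc12a5 (0.92, median 5.01), Arhgef4 and Casc4 for Slc17a7 (1.14 and 1.18, median 5.29), Cxadr and Tecr for Slc17a6 (0.46 and 0.56, median 3.25), Syt11 and Sec61a1 for Slc32a1 (0.89 and 0.96, median 3.61), Atp2b4 and Myo9b for Slc1a2 (1.01 and 1.02, median 3.57), Aldh7a1 and Pde4b for Slc1a1 (0.89 and 0.99, median 3.84) and Mboat7 and Grm5 for Slc12a2 (0.75 and 0.89, median 3.40). Among the carriers, Slc17a6 and Slc32a1, which serve opposite transmitters, were the closest pair at 1.11. Slc17a7 lay at 3.83 from Slc12a2 to 7.93 from Slc1a3, with Slc17a6 at 5.24.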

How the data were processed

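RPFs of the pellet and of fraction 5/6 and RNA-seq of brain homogenate were analysed in 36 libraries, 18 of them standard. The count values were made by the authors with Cutadapt 2.10, Bowtie2 2.3.5, STAR 2.7.8a on GRCm38, Picard, SAMtools 1.19.2 and featureCounts 2.2.0, and are whole numbers per gene without normalization. Reads marked as duplicates by position were removed without molecular barcodes, which can lower the counts of strongly covered sites. The peak signal values, as deposited, are heights in reads of peaks called per library by the authors on Ensembl transcripts, not scaled between libraries.

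Rows that GENCODE M21 gives as not protein-coding were left out, and 92 rows with an identifier but no gene name were kept. Low counts were removed by filterByExpr, and the rest were scaled by TMM and tested with edgeR 4.0.16 (quasi-likelihood test) and limma 3.58.1 in R 4.3.3, with Benjamini-Hochberg adjustment over all genes tested, a threshold of 0.05 and a prior count of 2. Occupancy, enrichment and fraction 5/6 against RNA were fitted within a genotype, and FMR1 KO against WT per library type and as an interaction. The fit was tested on simulated data. CPM were set on library totals without Cdk8, and RPKM on exon or coding lengths of GENCODE M21. Ratios were tested by exact permutation with scipy 1.17.1 in Python 3.11.15, with pandas 2.3.3 and numpy 2.4.6, and figures were drawn with matplotlib 3.10.9. Peaks were shared when their middles lay within 6 nt. Alternatives were DESeq2 1.42.0, library size alone, no filter, Cdk8 left out, the replicate block, the low nuclease libraries and each library left out. Added after seeing the data were the low nuclease fit without 3 RNA-seq libraries, the difference of enrichment between preparations and the ratios without the library labelled WT fraction 5/6 replicate 3. Named genes are the 8 carriers, the 2 highest and 2 lowest of each list per comparison and the 2 most similar genes. For fraction 5/6 against RNA only the leading ones are printed. A few genes that this rule names are not reported here. The carriers, lists and comparisons were chosen with earlier results of these data known. Where nothing says that libraries came from separate litters, p-values measure the spread between pooled preparations.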

Additional observations from a re-analysis of the deposited data

How the results depend on the processing

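The calls of carriers depended most on the scaling and on the preparation, and the cause was not tested unless named. Counts of genes called in the alternative fits are out of at most 16588 rows kept as protein-coding. With scaling by library size alone, where the median of all genes was -2.13 and -2.33 in WT and FMR1 KO occupancy and -2.25 and -1.93 in fraction 5/6 against RNA, log2 fold changes in WT occupancy were -2.05 for Slc1a2, -0.067 for Slc1a3, -0.69 for Slc1a1, -1.47 for Slc17a6, -1.38 for Slc32a1 and -0.79 for Slc12a5, and in FMR1 KO -0.062 for Slc1a3, -0.94 for Slc1a1, -1.66 for Slc17a6, -1.49 for Slc32a1 and -1.03 for Slc12a5. In fraction 5/6 against RNA they were -0.95 for Slc1a1, -2.01 for Slc17a6, -1.89 for Slc32a1 and -1.89 for Slc12a5 in WT, and -1.03 for Slc1a3, -1.09 for Slc1a1 and -1.70 for Slc17a6 in FMR1 KO. The carriers called were then 7 in WT occupancy, all lower, where 14601 genes were called, 14180 of them lower, 7 in WT fraction 5/6 against RNA, all lower, where 13530 of 13964 genes called were lower, and 0 in FMR1 KO enrichment. DESeq2 called 5 in WT fraction 5/6 against RNA, Slc1a3 and Slc1a2 being added (adjusted p = 0.0176 and 0.0478), where 9621 genes were called, 5 in WT occupancy, Slc32a1 being added (0.0171), of 10798, and 6 in FMR1 KO enrichment of 2070.

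In the low nuclease libraries, WT occupancy was -0.25 for Slc1a3, -0.42 for Slc1a1, -0.93 for Slc32a1 and -1.39 for Slc12a5, and FMR1 KO occupancy -0.45 for Slc1a3, -0.46 for Slc1a1, -0.32 for Slc17a6, -0.91 for Slc32a1 and -1.12 for Slc12a5. Without the 3 RNA-seq libraries led by 10 genes, an alternative chosen after seeing the data, they were -0.18 for Slc1a1, -0.99 for Slc32a1 and -1.21 for Slc12a5 in WT, and -0.58 for Slc1a3, -0.89 for Slc1a1, -0.75 for Slc17a6, -1.58 for Slc32a1 and -1.67 for Slc12a5 in FMR1 KO. Fraction 5/6 against RNA was -2.05 for Slc1a3, -1.14 for Slc1a1, -1.26 for Slc17a6, -2.21 for Slc32a1 and -3.22 for Slc12a5 in WT, and -1.93 for Slc1a3 and -1.10 for Slc1a1 in FMR1 KO. Carriers called were 1 in FMR1 KO occupancy, 7 in WT enrichment, 0 in FMR1 KO enrichment and 8 in WT fraction 5/6 against RNA. In the same order, 4407, 3559, 3193 and 9024 of all genes were called. The log2 differences of ratios were -0.55 for Slc12a5/Slc12a2 and 0.65 for Slc1a2/Slc1a3 in pellet against RNA (-0.88 and 0.70 without the 3 libraries, chosen after seeing the data), and -0.71 for Slc17a7/Slc17a6 and 0.42 for Slc32a1 to the vesicular glutamate transporters in pellet against fraction 5/6.

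With 1 library left out, 3 to 6 carriers were called in WT occupancy, 4 to 6 in FMR1 KO occupancy, 0 to 1 in WT enrichment, 1 to 4 in FMR1 KO enrichment, 2 to 6 in WT and 5 to 6 in FMR1 KO fraction 5/6 against RNA, and 0 between genotypes. In the same order, these fits called 9343 to 10743, 9401 to 11022, 0 to 1273, 491 to 1412, 7187 to 9869 and 8635 to 10176 of all genes. Slc1a2 then ranged from -0.43 to 0.16 in WT occupancy, and Slc32a1 from -0.86 to 0.52 and Slc12a5 from -1.16 to 0.51 in WT fraction 5/6 against RNA. Slc1a2/Slc1a3 and Slc32a1 to the vesicular glutamate transporters ranged from -0.44 to -0.23 and from 0.15 to 0.44 in pellet against fraction 5/6. Sites shared by the remaining pellets were 1 to 5 in each genotype, where fewer libraries had to share them. In FMR1 KO pellets, 3 sites were shared within 12 nt and 0 when only peaks above the median height were used.

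The libraries were fitted as unpaired. The deviations of same-numbered libraries correlated at -0.121 to 0.253 and in no pair of groups above 0.1 for all 3 numbers. The highest values were between pellet and fraction 5/6, with 0.253 for WT replicate 3 and 0.244 and 0.165 for FMR1 KO replicates 3 and 2. The paper takes both fractions from a gradient, and weak correlations cannot show that their pairing is absent. With a replicate block, 3 carriers were called in FMR1 KO enrichment, Slc32a1 being lost, Slc1a2 was called in WT fraction 5/6 against RNA (edgeR adjusted p = 0.0254) and Slc12a2 was not (0.0685), and 4 were called in WT and 6 in FMR1 KO occupancy, where 9880 and 9984 genes were called, and 662 genes in FMR1 KO enrichment.

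Genes called in WT enrichment were 3, against 90 by DESeq2, 170 with library size alone, 3559 with low nuclease, 0 with the block and 1273 without the library labelled WT fraction 5/6 replicate 3. In FMR1 KO enrichment they were 1515, against 235 with library size alone and 3193 with low nuclease. In FMR1 KO occupancy 10823 genes fell to 4407 with low nuclease, in FMR1 KO fraction 5/6 against RNA 10160 to 5321, and in WT fraction 5/6 against RNA 9043 rose to 13964 with library size alone. FMR1 KO occupancy without the 3 RNA-seq libraries called 6165. Between genotypes the counts were 12 in RNA-seq, 2 in the pellet, 0 in fraction 5/6, 11 in occupancy and 0 in enrichment. DESeq2 called 24 in RNA-seq, 66 in the pellet, 76 in fraction 5/6, 59 in occupancy and 41 in enrichment, and library size alone 287, 201 and 11 in the pellet, fraction 5/6 and enrichment. The block called 0 in the pellet, 7 in occupancy and 1 in enrichment. The low nuclease libraries called 0 in RNA-seq, 7 in fraction 5/6, 3 in occupancy and 2 in enrichment. Depth limits the values of carriers with few reads: in the standard RPF libraries Slc12a2 had 23 to 110 counts, Slc1a1 56 to 272, Slc32a1 38 to 289 and Slc17a7 56 to 292.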
